A study of Mus musculus with 4 samples.

Results

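The potassium channel genes analysed here were all genes of the deposited table whose symbol starts with *Kcn*, continues in letters and ends in a number, a pattern that leaves out non-coding neighbours such as *Kcnq1ot1*. The pattern was met by 92 of 56883 genes. Expression was measured by sequencing of total RNA from tdTomato-positive cells that were FAC-sorted from the basal telencephalon of mouse embryos at E14.5. Control cells carried *Sst-Cre/tdTomato* and *Dnmt1* KO cells carried *Sst-Cre/tdTomato/Dnmt1 loxP2*, so that Cre and the reporter were present in both genotypes and only the KO cells had floxed *Dnmt1* exons. The mice had a C57BL/6J background, Cre was expressed from the *Sst* locus, and each of the 2 libraries per genotype came from pooled embryos. The p-values therefore rest on a spread between pools that was shared across genes. The comparison asks which of these channel genes change when *Dnmt1*, the DNA methyltransferase gene, is deleted in postmitotic somatostatin interneurons.

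Potassium channels let potassium leave the cell, which holds neurons near their resting potential and ends each action potential. Voltage-gated (Kv) channels are tetramers of pore-forming subunits, whose opening is tuned by electrically silent subunits and by auxiliary proteins. Calcium- or sodium-activated channels respond to ions that enter during firing, inward rectifiers (Kir) and tandem-pore (K2P) channels act near rest, and Kv3 channels in particular are known for the fast repolarization of mature cortical interneurons.

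Recovered reads per library ranged from 6970247 to 8376711, of which the 92 genes took 0.0974% to 0.0978% in control and 0.109% to 0.111% in *Dnmt1* KO libraries. *Dnmt1* itself was counted at 2238 and 2341 in control and at 2164 and 2210 in *Dnmt1* KO libraries, a log2 fold change of -0.066 at an adjusted p of 0.461 in limma, above the threshold of 0.05. Counts are given per gene, so the floxed exons were not measured on their own. All 14 marker genes of somatostatin interneurons on a list were detected and were higher in *Dnmt1* KO cells, with summed normalized counts of 26941 and 27001 in control against 41412 and 42073. Markers of other cells were lower, with a negative log2 fold change for every one tested. The adjusted p in limma was below 0.05 for all 8 blood genes tested. It was also below 0.05 for 11 of 13 genes of pericytes, endothelium and fibroblasts (summed 940 and 1008 in control, 461 and 452 in *Dnmt1* KO). The same held for 8 of 10 genes of radial glia and cycling progenitors (summed 13614 and 13758 in control, 7860 and 8107 in *Dnmt1* KO). It also held for 7 of 9 genes of the excitatory lineage (summed 3081 and 3116 in control, 1671 and 1534 in *Dnmt1* KO) and for 2 of 4 microglial genes. Their part in the results that follow was not tested, and in sorted bulk cells fewer cells of a type cannot be told apart from less RNA per cell.

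Of the 92 genes, 12 had no read in any library, 23 had reads but a mean normalized count below 10, and 57 passed this filter. Between the genotypes, 8 of the 57 genes were called, which means that limma's Benjamini-Hochberg adjusted p over all 14323 tested genes was below 0.05. This is 14.0% of the channel genes tested, compared with 17.3% of all genes, so the number of changed channel genes was close to the background. Of the 8 genes, 6 were higher in *Dnmt1* KO cells, among them *Kcnc2*, *Kcnh3*, *Kcnb2*, *Kcnc1* and *Kcnd3*, and *Kcng1* and *Kcnk5* were lower. Genes called higher made up 8.3% and genes called lower 8.99% of all genes tested. Library values of the genotypes did not overlap for 27 of the 57 genes, or 47.4%, against 57.4% of all genes. An unadjusted p below 0.05 was found for 13 of the 57 genes and for 30.2% of all genes, and a log2 fold change above 0 for 36 of the 57 and for 49.5% of all genes. Where the mean over all libraries reached 100, 5 of 22 channel genes were called, compared with 21.8% of all genes. The median log2 fold change was 0.14 for the 57 genes and -0.0033 for all genes tested. When limma was run without a variance trend, none of the 57 genes was called, with a smallest adjusted p of 0.0616 and 19 genes at an unadjusted p below 0.05. With edgeR's quasi-likelihood test the same 8 genes were called, against 17.6% of all genes, and with DESeq2 5 of them, all higher, against 9.2% of all genes.

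**Figure D1:**
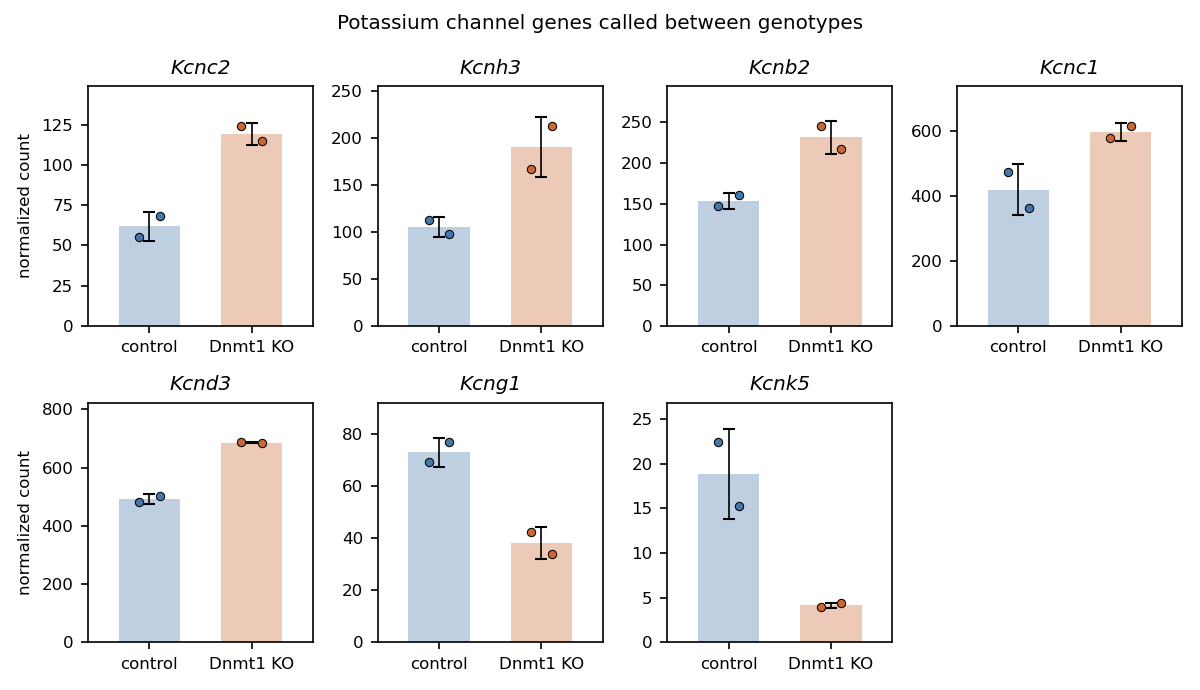
Normalized counts (vertical axes, from 0) of 7 called potassium channel genes in control and *Dnmt1* KO libraries. Bars are means, error bars the SD, and points the 2 libraries of each genotype. In each of the 7 panels both *Dnmt1* KO points lie on the same side of both control points.

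**Figure D2:**
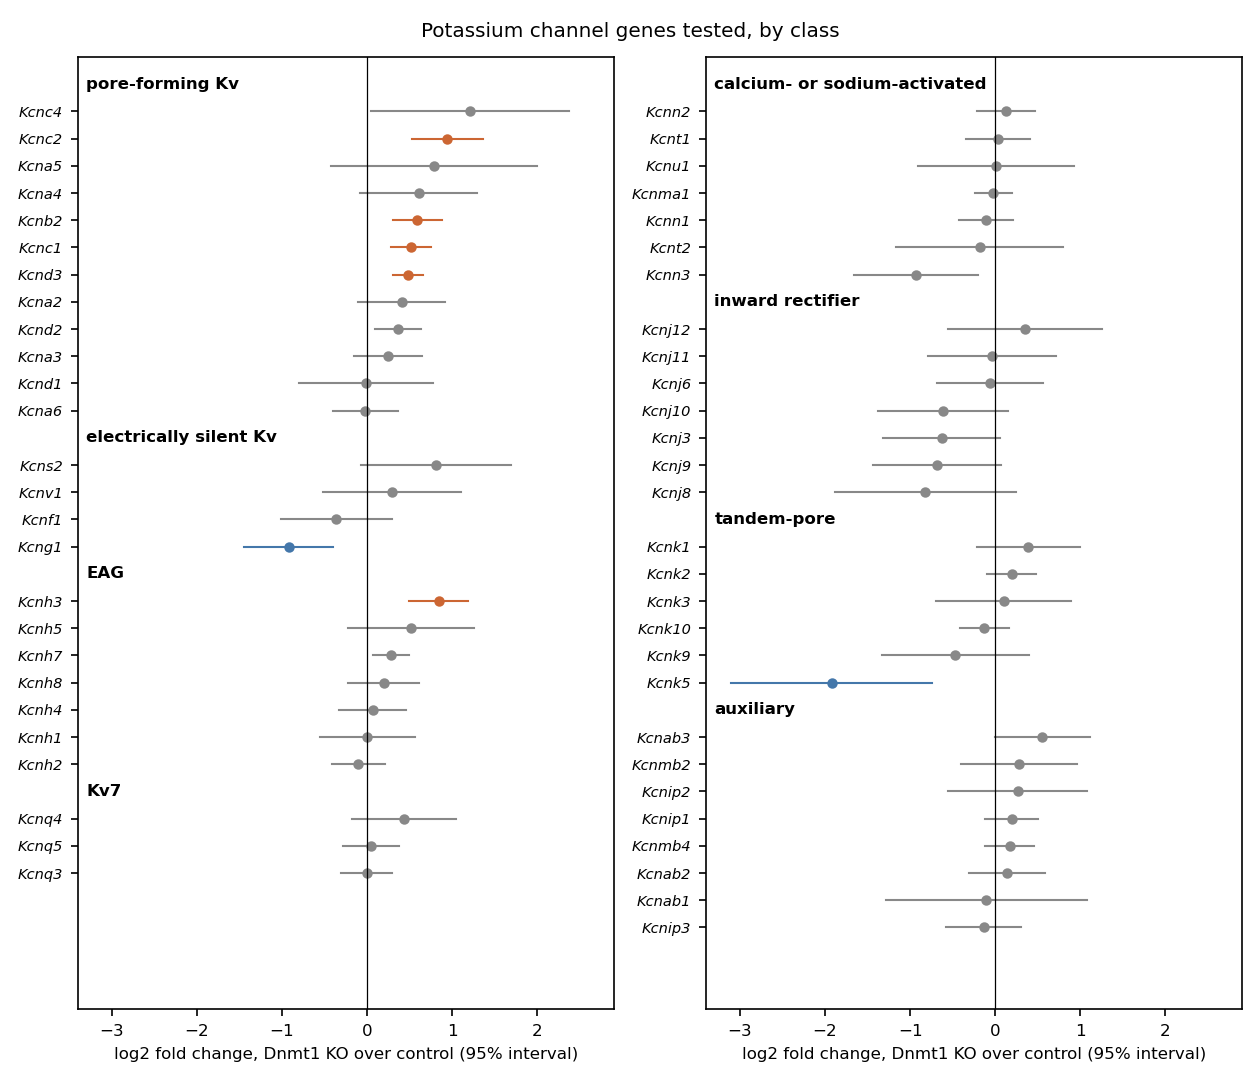
Log2 fold change of *Dnmt1* KO over control with its 95% interval from limma (horizontal axes) for 54 of the 57 potassium channel genes tested, grouped by class. Orange marks genes called higher, blue genes called lower and grey genes not called. The pore-forming Kv genes lie mostly right of 0, with 10 of the 12 drawn above it, and the inward rectifiers mostly left of it, with 6 of 7 below.

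Per kilobase of annotated transcript, *Kcnip1*, the gene of an auxiliary Kv4 subunit, had the highest mean normalized count when lengths were taken from the transcript with the longest coding sequence, and rank 11 when taken from the longest transcript. *Kcnmb4*, *Kcnk2*, *Kcnc1* and *Kcnd3* were among the 7 highest with either length. Of the 8 classes, inward rectifiers had the lowest leading member in control cells and in the mean over all libraries. By the transcript with the longest coding sequence this was *Kcnj6*, with 11.3 normalized counts per kilobase in control cells. In *Dnmt1* KO cells the leading electrically silent gene, *Kcnf1*, was slightly lower by this length, at 10.6 against 10.8 for *Kcnj6*. By the longest transcript it was *Kcnj11*, with a mean of 7.36 per kilobase over all libraries against 5.76 for *Kcnj6*.

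**Figure D3:**
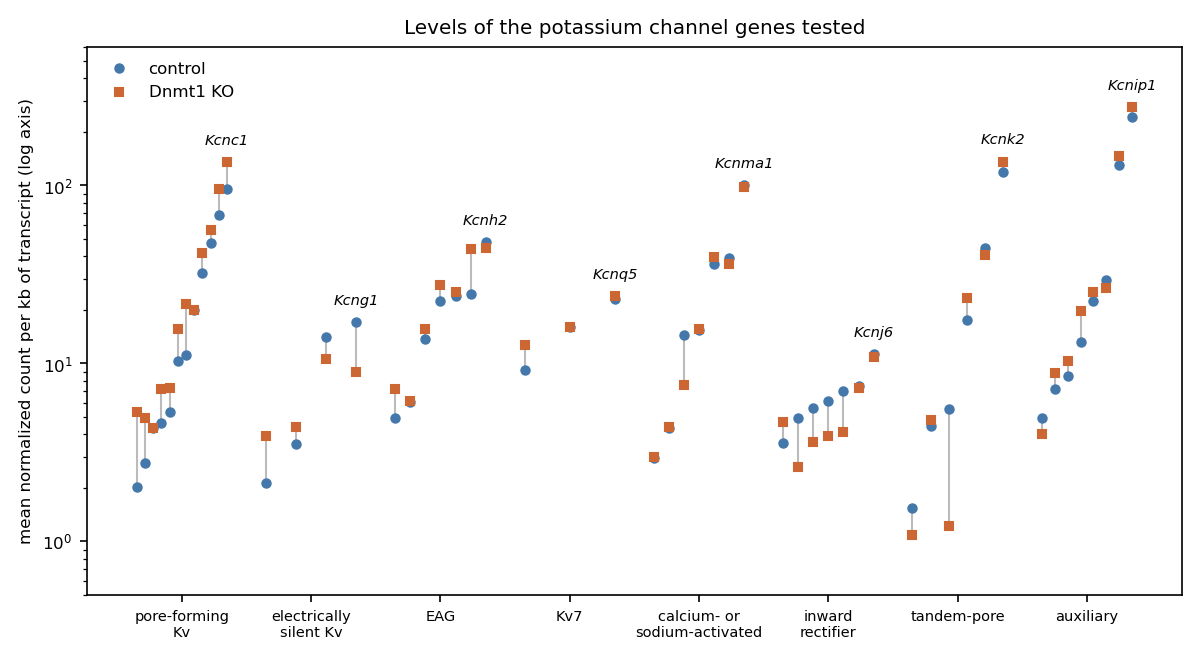
Mean normalized count per kilobase of the transcript with the longest coding sequence (logarithmic vertical axis) of 54 of the 57 genes tested, by class, with circles for control and squares for *Dnmt1* KO cells and a line between the 2 means of a gene. The name marks the gene with the highest control level among those drawn in its class. *Kcnc1* rises from 95.1 to 135, while both means of *Kcnma1* lie near 99.4.

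Most of the increase lay in the pore-forming Kv genes (*Kcna*, *Kcnb*, *Kcnc* and *Kcnd*), of which 14 of 17 were tested. Summed over the class, normalized counts were 2090 and 2113 in control and 2858 and 2810 in *Dnmt1* KO libraries. Of the 14 genes, 4 were called higher, compared with 8.3% of all genes, and none lower. A log2 fold change above 0 was found for 12 of the 14 (49.5% of all genes), with a median of 0.44, and an unadjusted p below 0.05 in limma for 7 (30.2% of all genes). Libraries of the genotypes did not overlap for 9 of the 14 genes, or 64.3%, which is close to the 57.4% of all genes. Among the 12, *Kcnc4* and *Kcna5* passed the filter only through their *Dnmt1* KO cells. Their mean normalized counts were 7.28 and 7.92 in control and 19.0 and 14.2 in *Dnmt1* KO cells, so the filter favoured a positive sign. *Kcnc4* also counts among the 7 and the 9.

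Within this class, the *Kcnc* genes encode the fast Kv3 channels. *Kcnc2* (Kv3.2, ENSMUSG00000035681.8) lies on chromosome 10 from 112105226 to 112302929 in GRCm39. Its normalized counts were 55.5 and 68.4 in control and 124 and 115 in *Dnmt1* KO libraries. The gene therefore rose from 61.9 ± 9.13 to 120 ± 6.76 (SD, n = 2 each), by 0.94 ± 0.20 (SE) on the log2 scale at an adjusted p of 0.00357 in limma, and it was called with each library left out in turn. *Kcnc1* (Kv3.1, chromosome 7 from 46045674 to 46106392) was more abundant. It was counted at 475 and 364 in control and at 578 and 616 in *Dnmt1* KO libraries, higher by 0.52 ± 0.11 (SE) on the log2 scale at an adjusted p of 0.00447 in limma. *Sergef*, on the opposite strand, overlaps *Kcnc1* in introns and had means of 76.5 and 108 normalized counts. The control libraries of *Kcnc1* were further apart than the KO libraries, and without control replicate 2 the log2 fold change was 0.33 with an adjusted p of 0.0549 from limma. The change of *Kcnc1* minus that of *Kcnc2* was -0.42 with a standard error of the difference of 0.23. *Kcnc4* (Kv3.4) had the largest positive value of the 57 genes, but with few reads, at 5.37 and 9.19 against 11.8 and 26.2 normalized counts (log2 fold change 1.21, 95% interval 0.051 to 2.38), and was not called (limma's adjusted p = 0.147).

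Among the called genes, *Kcnc1*, *Kcnc2*, *Kcnd3* and *Kcnk5* had an entry in the RefSeq table of gene starts (GRCm38.p6), and *Kcnb2*, *Kcng1* and *Kcnh3* had none. Since DNMT1 methylates cytosine in CG, the letters CG, which read the same on both strands, were counted in the 250 bases upstream of each start. The promoter windows of the 3 matched genes called higher within the same Kv class are shown, 5′ to 3′ on the plus strand, with each CG in capitals. They are chr7:46396218-46396467 for *Kcnc1*, chr10:112270871-112271120 for *Kcnc2* and chr3:105451640-105451889 for *Kcnd3*, where *Kcnc2* is given by its entry with the most CG out of 4.
Kcnc1: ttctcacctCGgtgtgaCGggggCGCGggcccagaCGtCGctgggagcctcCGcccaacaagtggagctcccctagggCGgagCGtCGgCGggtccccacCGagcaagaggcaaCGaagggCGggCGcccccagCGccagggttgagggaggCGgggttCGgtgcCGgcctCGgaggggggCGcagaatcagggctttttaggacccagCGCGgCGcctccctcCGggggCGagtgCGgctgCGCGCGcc
Kcnc2: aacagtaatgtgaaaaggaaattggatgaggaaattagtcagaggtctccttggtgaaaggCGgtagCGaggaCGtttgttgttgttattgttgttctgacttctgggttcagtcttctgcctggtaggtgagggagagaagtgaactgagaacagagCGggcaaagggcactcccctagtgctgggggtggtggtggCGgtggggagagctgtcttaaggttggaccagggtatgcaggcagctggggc
Kcnd3: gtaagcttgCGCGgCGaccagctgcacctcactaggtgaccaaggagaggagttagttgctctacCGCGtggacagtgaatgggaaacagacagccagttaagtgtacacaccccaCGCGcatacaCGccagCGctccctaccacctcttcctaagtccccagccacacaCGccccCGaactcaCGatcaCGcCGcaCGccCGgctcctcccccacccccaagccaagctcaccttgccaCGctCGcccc
The *Kcnc1* window holds 30 CG, a number reached by 5.94% of 32851 promoter windows of the same length, the *Kcnd3* window 18 (reached by 21.7%) and the *Kcnc2* window 5 (reached by 55.6%). At least 1 CG was found in 92.1% of all windows. The window of *Kcnk5*, which was lower in *Dnmt1* KO cells, holds 19. Over 67 channel genes with an entry, taking each gene's entry with the most CG, the median was 10 CG, compared with 6 over 27025 genes. The 3 printed windows thus span from near the median to the upper end.

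*Kcnd3* (Kv4.3, chromosome 3 from 105359284 to 105581318) encodes a subunit of the A-type current, which delays firing. It was counted at 481 and 503 in control and at 687 and 685 in *Dnmt1* KO libraries. It had the lowest adjusted p of the 8 called genes and was higher by 0.48 ± 0.082 (SE) on the log2 scale at an adjusted p of 0.000825 in limma, and the value ranged from 0.45 to 0.51 when single libraries were dropped. *Kcnd2* (Kv4.2) had 193 and 181 against 251 and 231 normalized counts. Its groups did not overlap either, but it was not called (log2 fold change 0.36, 95% interval 0.095 to 0.63, limma's adjusted p = 0.0603), and it differed from *Kcnd3* by 0.12 with a standard error of 0.15. *Kcnb2* (Kv2.2, chromosome 1 from 15356816 to 15793974), a delayed rectifier gene, rose from 147 and 160 to 246 and 217 normalized counts (0.59 ± 0.13 (SE) on the log2 scale, adjusted p = 0.00676 in limma). Its transcript is among the longest of the set, and once length and GC trends were taken out of every library its log2 fold change was 0.30, at an adjusted p of 0.149 in limma. Without control replicate 1, the adjusted p of *Kcnb2* from limma was 0.0501.

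None of the 5 tested *Kcna* genes, which encode Kv1 channels, was called, against 17.3% of all genes. A log2 fold change above 0 was found for 4, against 49.5% of all genes. *Kcna6* (Kv1.6) had 117 ± 9.99 normalized counts in control and 116 ± 22.3 (SD, n = 2 each) in *Dnmt1* KO cells. *Kcna3* (Kv1.3), which is also known from microglia and lymphocytes, was counted at 101 and 80.7 in control and at 114 and 101 in *Dnmt1* KO libraries, where microglial markers were lower.

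Of the 7 tested *Kcnh* genes (the ether-à-go-go family), 1 was called, or 14.3% against 17.3% of all genes. This was *Kcnh3* (chromosome 15 from 99122225 to 99140710). It rose from 113 and 98.0 to 168 and 213 normalized counts, or from 105 ± 10.4 to 190 ± 32.1 (SD, n = 2 each). On the log2 scale it was higher by 0.84 ± 0.16 (SE) at an adjusted p of 0.00236 in limma, and the call was kept with each library left out in turn and with DESeq2 (adjusted p = 0.00974). Its change exceeded that of *Kcnh1*, *Kcnh2*, *Kcnh4*, *Kcnh7* and *Kcnh8* by more than 2 standard errors of the difference. It exceeded that of *Kcnh5* by 0.32 with a standard error of 0.38. *Kcnh3* was picked for this comparison by its call in the same libraries, so these differences are a description. An exon of *Mcrs1*, on the opposite strand, overlaps *Kcnh3*, and although the library kit was a stranded one, whether strand was used in counting is not given in the sources used here. *Mcrs1* was counted at 506 and 460 in control and at 453 and 458 in *Dnmt1* KO libraries. *Kcnh7* had 301 and 312 against 372 and 375 normalized counts, without overlap and with a log2 fold change of 0.28, and was not called (limma's adjusted p = 0.0651). *Kcnh2*, the gene of the ERG channel, had 203 ± 33.7 and 189 ± 16.4 normalized counts (SD, n = 2 each), a difference smaller than the spread between control libraries.

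Among the *Kcnq* genes, which encode the Kv7 channels, *Kcnq3* had 206 and 174 normalized counts in control and 204 and 174 in *Dnmt1* KO libraries. The libraries overlapped, with a log2 fold change of -0.0050 and a 95% interval of -0.31 to 0.30, and the gene was not called. *Kcnq5* had 161 ± 7.97 and 167 ± 29.7 normalized counts (SD, n = 2 each). *Kcnq1*, from whose locus the opposite-strand *Kcnq1ot1* is transcribed, had 2 and 3 reads in the control and 0 in the *Dnmt1* KO libraries, whereas *Kcnq1ot1* was counted at 862 and 786 in control and at 1400 and 1045 in *Dnmt1* KO libraries.

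The electrically silent subunit genes do not form channels alone but modify Kv2 channels. Of the 4 tested, *Kcng1* (Kv6.1, chromosome 2 from 168102031 to 168123656) fell from 68.9 and 76.6 to 42.4 and 33.9 normalized counts, or by -0.92 ± 0.25 (SE) on the log2 scale at an adjusted p of 0.0172 in limma. It went in the opposite direction to the Kv2 gene *Kcnb2*. The call was lost without control replicate 1, control replicate 2 or *Dnmt1* KO replicate 2, with adjusted p of 0.0692, 0.134 and 0.0646 from limma, and with DESeq2 (adjusted p = 0.126). *Kcnf1* (log2 fold change -0.36), *Kcns2* (0.81) and *Kcnv1* (0.29) were not called, and the values of *Kcns2* and *Kcnv1* had the same sign as that of *Kcnb2*.

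Calcium- or sodium-activated channel genes showed no called change among 7 tested, against 17.3% called of all genes. An unadjusted p in limma below 0.05 was found for 1, against 30.2% of all genes. *Kcnma1*, the pore-forming gene of the large-conductance BK channel, had 367 and 385 normalized counts in control and 346 and 394 in *Dnmt1* KO libraries, with a log2 fold change of -0.024 and a 95% interval of -0.24 to 0.19. Thus a change of the size seen for *Kcnd3* lay outside the interval of *Kcnma1*. *Kcnn1* had a log2 fold change of -0.11 (95% interval -0.42 to 0.20), *Kcnn2* of 0.13 (-0.21 to 0.47) and the sodium-activated *Kcnt1* of 0.030 (-0.34 to 0.40). *Kcnn3*, a small-conductance SK channel gene, was lower at 37.6 and 45.9 against 27.6 and 16.4 normalized counts without reaching the threshold (log2 fold change -0.93, limma's adjusted p = 0.0757).

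Inward rectifier genes were lowly expressed, with 7 of 15 tested. None of them was called, against 17.3% of all genes, and none had an unadjusted p in limma below 0.05, against 30.2%. Their median log2 fold change was -0.61, and 6 of the 7 values were negative. Summed normalized counts of the class were 201 and 219 in control and 181 and 160 in *Dnmt1* KO libraries. *Kcnj3* and *Kcnj9*, which encode subunits of G protein-gated channels, had means of 34.9 and 34.9 in control and 22.2 and 20.7 in *Dnmt1* KO cells. An exon of *Igsf8*, which was lower in *Dnmt1* KO cells (log2 fold change -0.42), overlaps *Kcnj9* on the opposite strand, so the value of *Kcnj9* is uncertain. *Kcnj8*, known from pericytes, had 17.9 and 13.3 against 7.89 and 8.74 normalized counts (log2 fold change -0.82, 95% interval -1.88 to 0.24), and *Kcnj10*, known from glia, had 26.8 and 33.7 against 22.7 and 16.4 (log2 fold change -0.61, 95% interval -1.38 to 0.15). Markers of pericytes and radial glia were lower in the same libraries, and their part in these values was not tested. *Kcnj13* and *Kcnj16* had 0 reads in every library, which allows up to 3 reads each, or 2.68 to 3.28 normalized counts, for counting error only.

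Of the 6 tested tandem-pore genes, 1 was called, or 16.7% against 17.3% of all genes. This was *Kcnk5* (TASK-2, chromosome 14 from 20190125 to 20231900). Its normalized counts were 22.4 and 15.3 in control and 3.95 and 4.37 in *Dnmt1* KO libraries, from 25 and 15 reads against 4 and 4. *Kcnk5* passed the filter through its control libraries alone, since its mean over all libraries was 11.5. Its change of -1.92 ± 0.56 (SE) on the log2 scale (adjusted p = 0.026 in limma) was -1.02 with a pseudocount of 10, and the adjusted p from limma was 0.166 without control replicate 1 and 0.0616 without control replicate 2, while DESeq2 gave no adjusted p. *Kcnk10* (TREK-2) and *Kcnk2* (TREK-1), the abundant genes of this class, were not called, with 334 ± 68.9 and 303 ± 36.7 normalized counts for *Kcnk10* and 184 ± 13.2 and 211 ± 24.4 for *Kcnk2* (SD, n = 2 each). The libraries of *Kcnk10* overlapped, and those of *Kcnk2* were separated by less than their spread, at 193 and 175 against 228 and 193. *Kcnk13*, known from microglia, had 5 and 1 reads in control and 0 in *Dnmt1* KO libraries.

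None of the 8 tested auxiliary subunit genes was called, against 17.3% of all genes. *Kcnip1*, a calcium-binding partner of Kv4 channels, had 168 ± 27.5 and 192 ± 8.85 normalized counts, *Kcnmb4*, the neuronal partner of BK channels, 162 ± 1.6 and 183 ± 1.46, and *Kcnab2*, a partner of Kv1 channels, 106 ± 1.13 and 121 ± 41.1 (SD, n = 2 each). *Kcnab2* overlaps exons of *Chd5*, an abundant gene on the opposite strand that was higher in *Dnmt1* KO cells (log2 fold change 0.26). The value of *Kcnab2* is therefore uncertain, and its *Dnmt1* KO counts of 150 and 91.8 enclosed both control values. The libraries of *Kcnmb4* did not overlap, with a log2 fold change of 0.17 (95% interval -0.12 to 0.46).

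Partners of potassium channels that do not carry a *Kcn* symbol were followed in a list of 33 genes, of which 30 were tested. By limma, 8 of the 30 rose and 4 fell, or 40.0% in all, compared with 17.3% of all genes tested. The partner genes were more abundant, with a median mean count of 404 against 148 for all genes tested. Where the mean over all libraries reached 100, 9 of 24 partner genes were called, compared with 21.8% of all genes. The list was chosen with earlier results of these data known, so these shares only describe the list. *Dpp10* and *Dpp6*, whose products assemble with Kv4 channels, rose with *Kcnd3*. *Dpp10* was counted at 485 and 424 in control and at 803 and 869 in *Dnmt1* KO libraries (log2 fold change 0.88 at an adjusted p of 7.27e-06 in limma), and *Dpp6* at 1056 and 1085 against 1248 and 1293 (0.25 at 0.0157). The call of *Dpp6* was lost without control replicate 1 and without *Dnmt1* KO replicate 2, at adjusted p of 0.0706 and 0.0993 from limma. *Lgi1* and *Adam22*, a secreted ligand and its receptor that act on Kv1 channels, had log2 fold changes of 0.82 and 0.47, and *Lgi1* was not called without control replicate 1 (0.54, limma's adjusted p = 0.118). *Akap5*, a kinase anchor of Kv7 channels, rose by 0.72 on the log2 scale. *Hcn3*, a hyperpolarization-activated channel gene, had a log2 fold change of 0.53. It was not called without control replicate 1 or without *Dnmt1* KO replicate 1, with adjusted p of 0.122 and 0.0892 from limma, and *Hcn4*, at 324 ± 4.29 and 332 ± 4.23 normalized counts (SD, n = 2 each), was not called. Genes that fell included *Cntn2*, an axonal adhesion gene of Kv1 clusters (-0.55), and the sulfonylurea receptor genes *Abcc8* (-1.01, limma's adjusted p = 0.0427) and *Abcc9* (-0.83, 0.0499), which encode partners of the Kir6 channels of *Kcnj11* and *Kcnj8*. *Abcc9* also stood on the list of pericyte genes, and with edgeR it was not called (adjusted p = 0.0576). *Abcc8* was not called without control replicate 1 or *Dnmt1* KO replicate 1, at adjusted p of 0.37 and 0.0764 from limma, and *Abcc9* was not called without control replicate 1, control replicate 2 or *Dnmt1* KO replicate 2, at 0.103, 0.275 and 0.22.

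Across all genes tested, the log2 ratio of *Dnmt1* KO to control rose by 0.0549 for each doubling of transcript length, compared with 0.00172 and 0.000639 between libraries of 1 genotype. The 57 channel genes had a median transcript length of 4707 bases, against 3515 for all genes tested. Among the 57, log2 fold change and transcript length had a Spearman correlation of 0.034, given as a description over genes that share the same libraries. After removal of the trend over length and GC content, 6 channel genes were again called higher and 2 lower, 7 of them shared with the fit reported, with *Kcnd2* (log2 fold change 0.41) in place of *Kcnb2*.

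**Figure D4:**
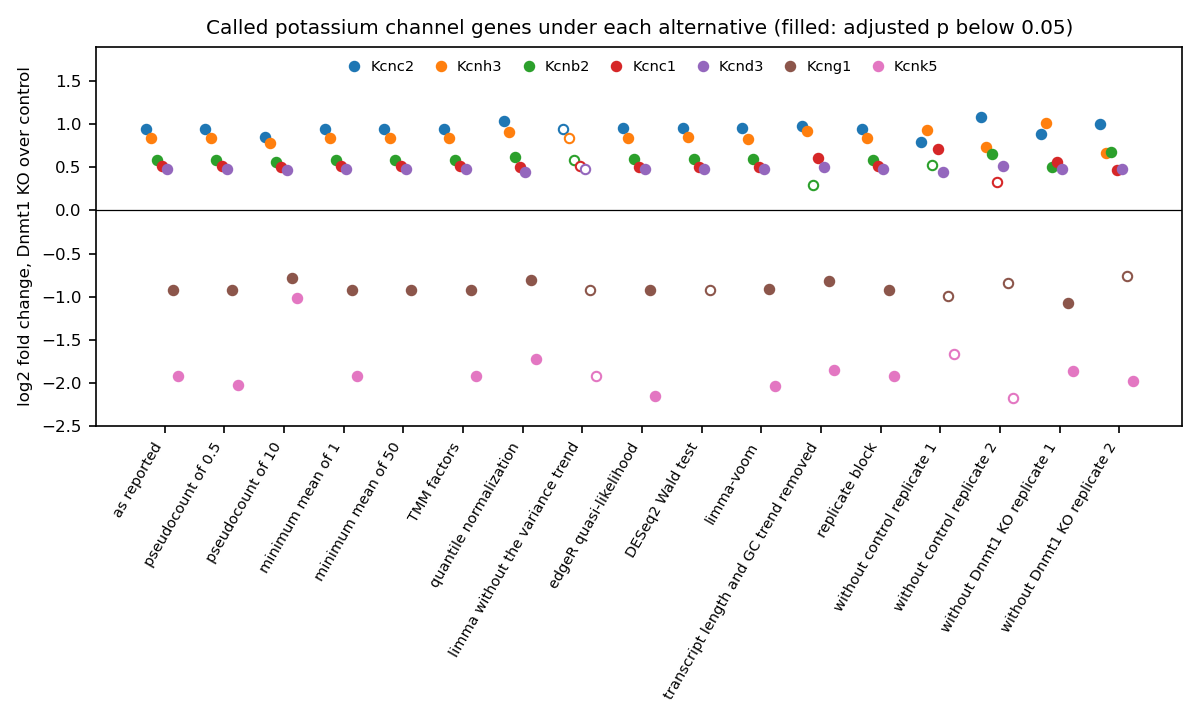
Log2 fold change of *Dnmt1* KO over control (vertical axis) of 7 called genes as reported and under each alternative (horizontal axis). Filled points have an adjusted p below 0.05 in that fit and open points do not, and a gene without a point was not tested or received no adjusted p. No gene crosses 0, and only limma without the variance trend leaves all 7 points open.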

How the data were processed

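Total RNA was sequenced from 2 control and 2 *Dnmt1* KO libraries of FAC-sorted cells, grouped by the sample titles. The authors trimmed reads with Trim Galore 0.6.7, aligned them to GRCm39 with STAR 2.7.9a, quantified genes with Salmon 1.10.1 and deposited a signal per gene and library, a count divided by 1 DESeq2 size factor (versions from the paper and the submitters' processing notes). Dividing by the value of 1 read gave whole numbers, with a tolerance of 0.0001, for all 89965 values above 0 (100%), so reads could be recovered, on which edgeR called 2528 genes. The filter kept genes whose mean normalized count reached 10. Their log2(normalized count + 1) was compared between genotypes, without covariates, in limma 3.58.1 (R 4.3.3, eBayes with a variance trend), and p-values of all these genes were adjusted after Benjamini and Hochberg. Fold changes on this scale understate the change of low genes. Standard errors, 95% intervals and p rest on a spread shared across genes, because an exact permutation test of 2 against 2 libraries cannot go below 0.333. The standard error of a difference between genes treats them as independent, although they were measured in the same libraries.

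Alternatives were pseudocounts of 0.5 and 10, minimum means of 1 and 50, quantile normalization, TMM factors, a constant prior variance in limma, and, on recovered reads, DESeq2 1.42.0, edgeR 4.0.16 and limma-voom. Further alternatives were a correction for transcript length and GC content within each library (splines with 5 degrees of freedom, GENCODE annotation of GRCm39), a replicate block and each library left out. With 1 library left in a genotype, that library was assumed to vary like the others. Steps were tested on simulated data. Named were all called members, uncalled members with a mean of at least 100, members known as markers of other cells, *Kcnq1*, members nearest to the filter and called partner genes. Some genes that this rule names are not reported here. Uncalled members below 100 without such a role, such as *Kcnh5*, *Kcnn3*, *Kcnj3*, *Kcnj9*, *Kcnc4*, *Kcnj6*, *Kcne2* and *Kcns3*, and the uncalled partner *Hcn4*, were named after their values were seen. The members and lists were chosen with earlier results of these data known. All 4 per-library columns were used. Protein sequences were not used here.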

Additional observations from a re-analysis of the deposited data

How the results depend on the processing

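The 6 genes called higher and the 2 called lower kept their direction in every fit that gave them a value. The number called higher was 5 to 8 under the alternatives, except 0 with limma without the variance trend, and 5 to 6 with each library left out. The number called lower was 1 with a minimum mean of 50, at which *Kcnk5* was not tested, and 0 with DESeq2 and with limma without the variance trend, and it was 0 to 3 when single libraries were dropped (0 without either control library). Of partner genes, 8 were called higher and 4 lower. The former number was 0 without the variance trend, 5 with DESeq2 and 4 to 8 with each library left out, and the latter 0 without the variance trend, 2 with a minimum mean of 50, quantile normalization, DESeq2 or removal of the length and GC trend, and 2 to 3 with each library left out. Apart from the fits named, the cause of these differences was not tested. Only *Kcnc2*, *Kcnh3* and *Kcnd3* of the called genes were called with each library left out and by DESeq2. Libraries of the same replicate number showed no sign of pairing (correlation of deviations from the group means -0.0847 over 14323 genes). With 2 libraries per genotype this value cannot exclude a pairing. With a replicate block, 8 channel genes were called higher and 3 lower, with *Kcnd2* and *Kcnn3* among those added, and of partner genes 10 were called higher and 4 lower.

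Signs changed only for uncalled genes. With quantile normalization, the log2 fold change was 0.052 for *Kcna6* and 0.031 for *Kcnq3*, and with the length and GC trend removed it was 0.069 for *Kcna6* and 0.054 for *Kcnma1*. With single libraries left out, values ranged from -0.22 to 0.17 for *Kcna6*, from -0.13 to 0.12 for *Kcnq3*, from -0.12 to 0.070 for *Kcnma1*, from -0.13 to 0.23 for *Kcnq5*, from -0.13 to 0.19 for *Kcnt1*, from -0.21 to 0.49 for *Kcnab2*, from -0.34 to 0.083 for *Kcnk10* and from -0.27 to 0.067 for *Kcnh2*. With 2 libraries per genotype and a median mean count of 59.0 of the channel genes tested, small changes of low genes were not detectable at this depth.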

Other observations

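Some channel genes below the filter had reads mainly in 1 genotype. *Kcne2*, an auxiliary subunit gene known from the choroid plexus, had 3 and 4 reads in control and 0 in both *Dnmt1* KO libraries, and *Kcne3* had 3 and 0 reads in control and 0 in *Dnmt1* KO libraries. *Kcns3* (Kv9.3), a silent subunit gene, had 1 and 3 reads in control and 8 and 6 in *Dnmt1* KO libraries. These numbers of reads allow no statement on a difference. Of the genes nearest to the filter, *Kcna1* (mean normalized count 8.07) lay just outside, and *Kcna5* (11.1) and *Kcnk5* (11.5) just inside.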
